A study of Homo sapiens with 9 samples.

Results

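The genes described here write, erase or maintain marks on chromatin and DNA. They are 45 genes listed by their function, with no measured value in the rule: 4 DNA methylation genes, 3 TET dioxygenases, 4 core genes of the Polycomb complex PRC2, 5 methyltransferases of histone H3 lysine 4, 4 of lysines 36 and 79, 4 of lysine 9, 7 lysine demethylases, 8 histone deacetylases, 4 acetyltransferases and the 2 ATPases of the SWI/SNF remodeller. The members were chosen with earlier results of these data known, so the shares called below describe them and are no independent evidence. All 45 were found by symbol among the 60230 genes of the deposited tables, and all 45 were among the 17307 genes tested. RNA was sequenced from NCI-H358, a human lung cancer cell line, and from NCI-H358-R, a single derivative line selected for about 2 months in 250 nM of the cancer drug sotorasib. The 3 states were the untreated, sotorasib-sensitive parental line, NCI-H358-R profiled without drug, and NCI-H358-R in 250 nM sotorasib, collected 4 days after dosing. Each state had 3 libraries, all grown in RPMI with 10% serum, and the interval between drug removal and collection of the off-drug cells is not stated. The labels call the replicates biological without naming separate cultures, so the tests rest on library-to-library spread that may be technical.

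DNMT1, which UHRF1 brings to newly copied DNA, keeps methylation patterns through cell division, DNMT3A and DNMT3B place new methylation, and TET enzymes oxidise it. PRC2 methylates histone H3 on lysine 27 with EZH2 or EZH1 as its catalytic subunit, while other methyltransferases mark lysines 4, 9, 36 and 79, and demethylases, acetyltransferases and deacetylases set and remove marks. Several of these genes, among them DNMT1, UHRF1 and EZH2, are known to be transcribed most in dividing cells, from promoters that bind E2F factors.

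Promoters of the 45 genes were searched for letters of the kind E2F factors recognise. A promoter window was 250 bases before to 50 bases after a transcription start in RefSeq (GRCh38.p14), and 78 windows matched 43 of the 45 genes; HDAC5 and DOT1L had none. The searched E2F words were TTTCCCGC, TTTGGCGC, TTTCGCGC and TTTGCCGC, on both strands. They occurred in the windows of 6 of the 43 genes, against 3.99% of all 27305 genes with a window, and in 7 of the 78 windows, against 3.31% of all 35116. The 6 were DNMT1, UHRF1, EZH1, EZH2, SUZ12 and NSD2. Genes with a word and genes that rose were not the same set. DNMT3B, EED, SUV39H1 and SUV39H2 rose in the values below without a word, and EZH1 has a word and passed no test. A part of E2F factors in these changes was not tested. For each gene with an E2F word, a match is shown with up to 30 bases on either side, read 5′ to 3′ along the gene, in capitals. Another UHRF1 match, TTTCGCGC in a different window, is not shown.
UHRF1, chr19:4909457-4909520, plus strand: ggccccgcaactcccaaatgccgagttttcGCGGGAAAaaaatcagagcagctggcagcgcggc
DNMT1, chr19:10194934-10194985, minus strand: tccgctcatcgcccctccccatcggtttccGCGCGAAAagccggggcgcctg
EZH2, chr7:148884272-148884320, minus strand: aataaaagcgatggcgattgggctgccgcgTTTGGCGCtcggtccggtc
EZH1, chr17:42745118-42745185, minus strand: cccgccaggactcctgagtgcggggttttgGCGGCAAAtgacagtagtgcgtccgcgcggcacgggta
SUZ12, chr17:31936788-31936855, plus strand: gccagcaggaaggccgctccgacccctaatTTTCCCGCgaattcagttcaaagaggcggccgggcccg
NSD2, chr4:1871286-1871353, plus strand: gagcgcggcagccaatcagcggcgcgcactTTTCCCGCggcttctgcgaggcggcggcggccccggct
A match is a description of letters and not a shown binding site. Letters that AP-1 factors recognise (TGANTCA) were in the windows of 3 of the 43 genes, KDM3A, HDAC9 and SMARCA2, against 9.37% of all genes. The stretches of HDAC9 and KDM3A are given, 2 genes picked because they were lower on drug than off it in the values below. SMARCA2 was not called there, and KDM6B and KDM5B were among the genes called lower with no such word. A part of AP-1 factors in these changes was not tested.
HDAC9, chr7:18495652-18495718, plus strand: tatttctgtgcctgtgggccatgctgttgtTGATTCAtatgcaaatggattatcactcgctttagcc
KDM3A, chr2:86441391-86441457, plus strand: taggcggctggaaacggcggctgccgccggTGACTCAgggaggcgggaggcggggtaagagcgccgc
The E-box CACGTG was in windows of 8 of the 43 genes, against 8.77% of all genes, and CCAAT in 15, against 39.7%.

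Library totals ran from 25698500 to 34727826 counts, and libraries of a state correlated at 0.986 to 0.991 across genes on log counts, against 0.904 to 0.951 between states. The 6 epithelial markers (EPCAM, CDH1 and 4 keratins) were all at or above 1 CPM (TMM-scaled counts relative to library size) in each state. Their summed level was 6660 to 8050 CPM in parental, 6840 to 7050 off drug and 4000 to 4770 on drug. Marker sums of other cell types were far lower, with 27 to 31, 17.9 to 18.6 and 126 to 158 CPM for 7 fibroblast genes (COL3A1 at 0 in parental and off drug, DCN at 0 in parental), 9.79 to 12.8, 25.3 to 26.8 and 13.4 to 17.7 for 5 endothelial genes, and 60.6 to 70.5, 73.4 to 81.2 and 8.08 to 9.43 for 6 leukocyte genes (CD3E at 0 in parental and off drug). The part of these sums in the results was not tested. Parental replicate 3 stood apart by transcript length. Its median log2 difference from the other 2 parental libraries was −0.28 for 1256 genes whose longest transcript exceeds 8000 bases and 0.13 for 4276 genes under 2000 bases. In the other 8 libraries the median for the longest genes lay between −0.08 and 0.15. Since 19 of the 45 chromatin genes exceed 8000 bases, and their median in that library was −0.37 against −0.17 for the 26 others, calls that change without it, and printed values that move by over 1.5 times, are given without it.

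**Figure D1:**
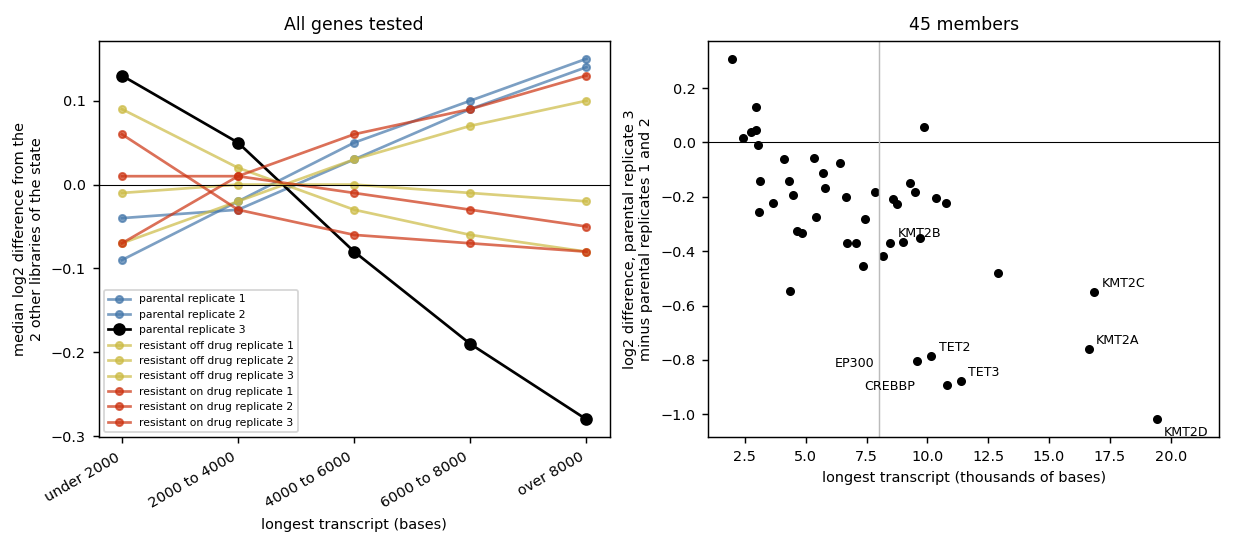
Transcript length and parental replicate 3. Left, the median log2 difference of each library from the other 2 of its state (y) by bin of longest transcript length in bases (x). Right, the log2 difference of parental replicate 3 from replicates 1 and 2 for each of the 45 chromatin genes (points) against length in units of 1000 bases. Replicate 3 falls from 0.13 for short genes to −0.28 for the longest, and KMT2D, CREBBP, TET3, EP300, TET2 and KMT2A lie lowest.

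Across the whole set, more of the 45 genes were higher than lower in the resistant line. Called means an adjusted p under 0.05 in edgeR's quasi-likelihood test, Benjamini-Hochberg adjusted over all genes. Off drug against parental, 25 genes were higher, against 28.4% of all genes tested, and 4 were lower, against 26.6%; as shares of the 45 these are 55.6% and 8.89%. Their median log2 fold change was 0.34, against 0.00 for all genes. The 4 lower genes were DNMT3A, KDM4B, KDM6B and SMARCA2, and without parental replicate 3 they were joined by TET2, TET3 and HDAC4, which makes 7. On drug against off drug, 19 were higher and 12 lower, or 42.2% and 26.7%, against 31.4% and 31.2% of all genes, with a median of 0.11 against 0.02. In the fit without parental replicate 3, KMT2A was also called lower there (−0.25, adjusted p = 0.017) and CREBBP higher (0.39, 0.00068). On drug against parental, 24 were higher and 9 lower, or 53.3% and 20%, against 33.4% and 32.9%, with a median of 0.30 against 0.02. Without parental replicate 3 these were 21 and 10: TET2 (adjusted p = 0.11), KMT2C (0.14) and NSD1 (0.16) were no longer called higher, and KMT2D was called lower (−0.28, 0.014). Of the 45 genes, those called with changes of 2-fold or more were 3 higher and 0 lower off drug against parental (7.49% and 9.73% of all genes), 2 and 1 on against off drug (13.5% and 11.3%), and 8 and 1 on drug against parental (13.4% and 13.9%). The 8 were a larger share than that of all genes, and the other counts were smaller shares. The 3 comparisons share their groups, so they are set side by side and are not independent.

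The on-drug splits depended on how libraries were scaled. TMM factors were 1.113 to 1.124 in the on-drug libraries and 0.917 to 0.972 in the others. Scaled by library size alone, the median of all genes moved to 0.27 on against off drug and to 0.24 on drug against parental, and the chromatin genes split 26 higher to 5 lower and 29 to 5. On log2(TPM + 1), where TPM is the length-normalised transcript level, the splits were 19 to 4 and 31 to 3, with all-gene medians of 0.16 and 0.27, and 25 to 1 off drug against parental with an all-gene median of 0.13. The shares of all genes called were counted for the main fit only. Splits under other settings, here and elsewhere, therefore show dependence on the setting and cannot be set against all genes.

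**Figure D2:**
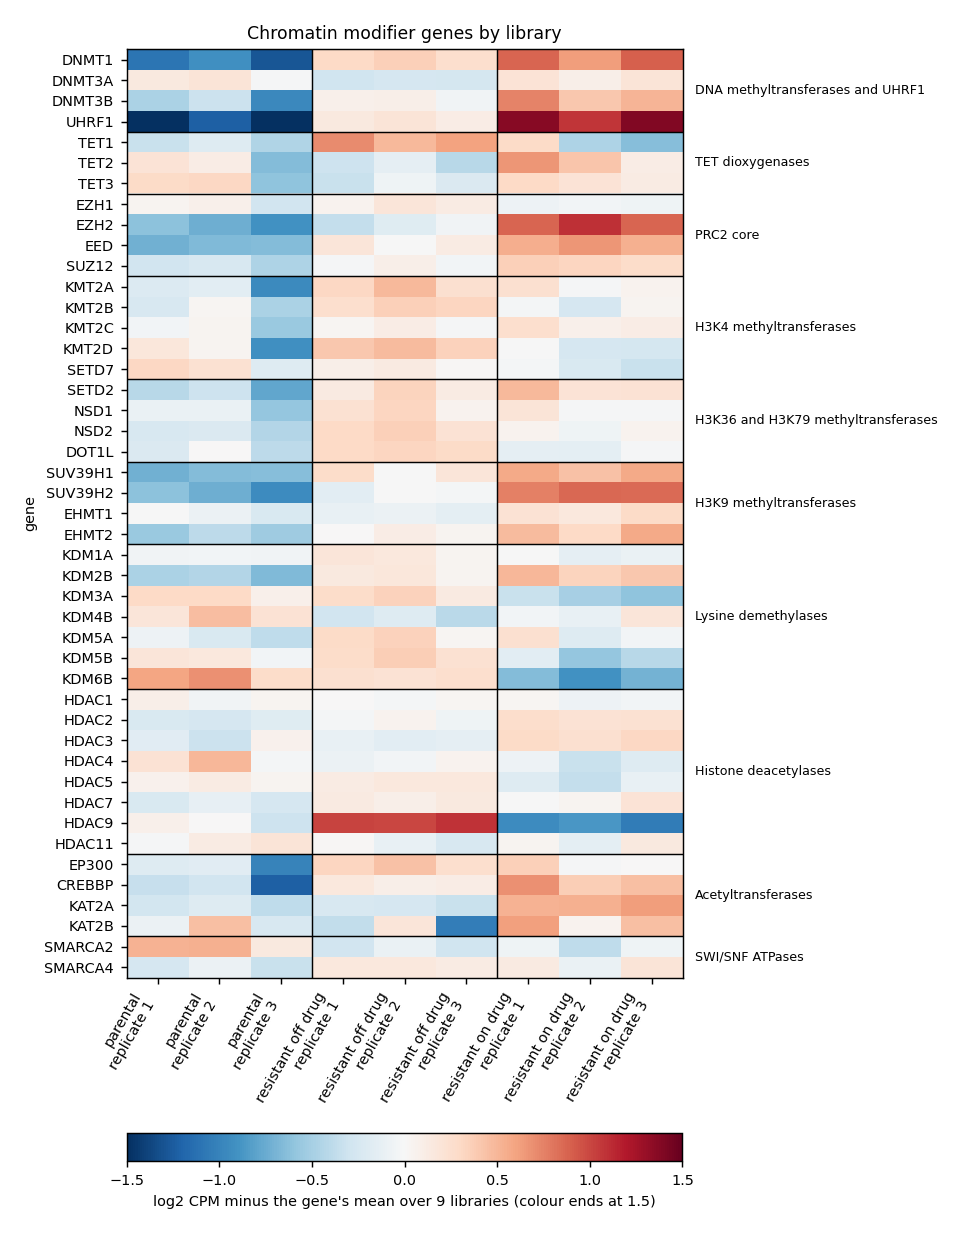
Levels of the 45 chromatin genes in each of the 9 libraries. Rows are genes grouped by role, columns are libraries, and colour is the log2 CPM minus the gene's mean over the 9 libraries, ending at 1.5 on either side. UHRF1, DNMT1, EZH2 and SUV39H2 go from blue in parental to red on drug, while HDAC9 is reddest off drug.

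**Figure D3:**
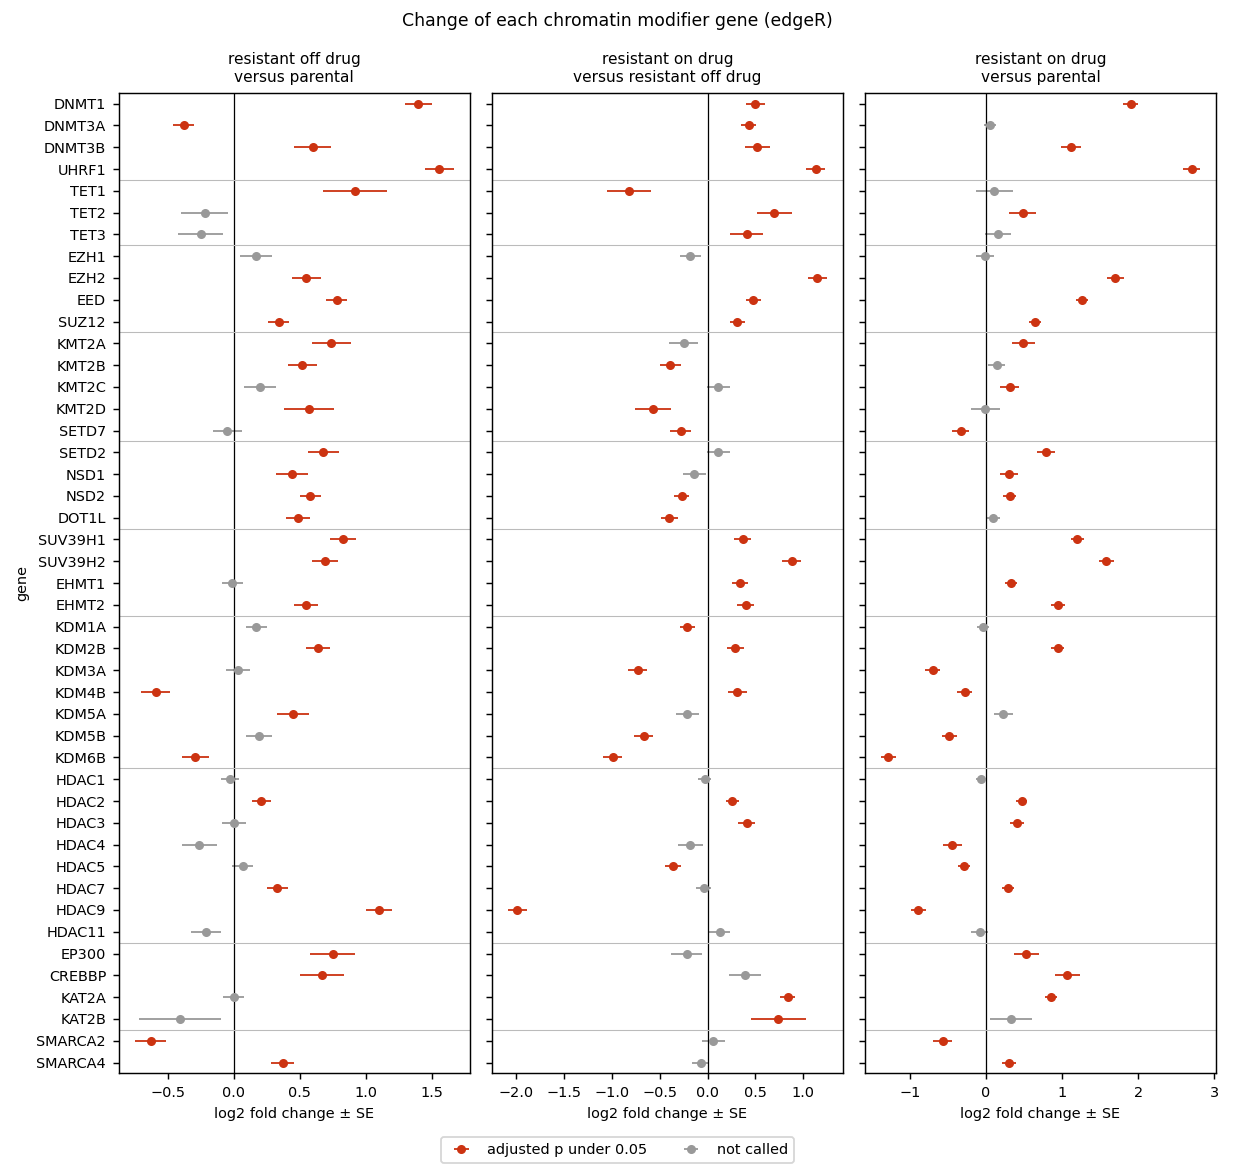
Log2 fold change of each of the 45 genes in the 3 comparisons, with bars for ± SE from edgeR, coloured where the adjusted p is under 0.05. UHRF1 lies farthest to the right in the panels for off drug against parental and on drug against parental, and HDAC9 lies on opposite sides of 0 off drug against parental and on against off drug.

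By TPM, which allows levels of different genes to be compared, HDAC1 (71.7 ± 8.75, SD, n = 3) and HDAC2 (67.7 ± 4.67) led in the parental line and overlapped in their spread. KAT2B (0.598 ± 0.209) and TET1 (0.213 ± 0.0292) were lowest there. Several genes changed places between states. UHRF1 went from place 39 of 45 in parental to 29 off drug and 15 on drug, at 2.41 ± 0.40, 7.75 ± 0.688 and 19.9 ± 3.11 TPM. EZH2 went from 25 to 20 to 10, DNMT1 from 19 to 10 to 7, and HDAC9 from 8 to 4 to 24. KDM6B, a demethylase of H3 lysine 27, was at places 17, 19 and 37. Neighbours in the middle of the order were close: EP300 (5.11 ± 1.19) and KMT2A (5.04 ± 1.18 TPM) in parental differed by less than their SD.

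UHRF1 and DNMT1, which maintain DNA methylation, had the largest log2 fold changes of the 45 genes against parental in both resistant states. UHRF1 (ENSG00000276043.5, chromosome 19, 4903080 to 4962154, GRCh38) stood at 11, 13.5 and 11 CPM in the 3 parental libraries, 35, 36 and 34.1 off drug, and 81.3, 66.3 and 82.8 on drug. The 3 states did not overlap. Its log2 fold change was 1.56 ± 0.11 (SE) off drug against parental (adjusted p = 9.7e-09), 1.13 ± 0.10 on against off drug (7.5e-08) and 2.70 ± 0.11 on drug against parental (6e-12). DNMT1 (ENSG00000130816.17, chromosome 19, 10133345 to 10231286) was at 43.3, 48.9 and 38 CPM, then 114, 119 and 110, then 169, 143 and 173. Again no library of one state reached the range of another, with log2 fold changes of 1.40 ± 0.10 (1.4e-08), 0.50 ± 0.10 (0.0003) and 1.90 ± 0.10 (1.5e-10). In bulk RNA a larger share of cells that transcribe a gene and more of its RNA per cell cannot be told apart.

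Of the enzymes that place new methylation, DNMT3B rose and DNMT3A fell off drug against parental, and both were called higher on than off drug. DNMT3B was at 16.2, 17.9 and 11.5 CPM in parental, 23.7, 23.8 and 21.6 off drug, and 37.5, 29.7 and 31.9 on drug, with log2 fold changes of 0.60 ± 0.14 (adjusted p = 0.0015), 0.52 ± 0.13 (0.0025) and 1.12 ± 0.13 (2e-06). DNMT3A was at 38.1, 39.5 and 34.1, then 28.1, 29.1 and 28.8, then 39.9, 36.6 and 39.5 CPM. It was called lower off drug than in either other state, and the 2 outer states overlapped. Within each library the TPM ratio of DNMT3B to DNMT3A averaged (geometric mean, as for all such ratios here) 0.392 in parental, 0.707 off drug and 0.725 on drug. For these within-library ratios an exact two-sided permutation test over 3 against 3 libraries cannot go below 0.1, 14 pairs in 3 comparisons were tested, and the smallest adjusted p was 0.18, so none passed.

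TET genes, which act against methylation, did not move as a group. TET1, the lowest of the 3, was at 1.86, 2.04 and 1.71 CPM in parental, 3.81, 3.27 and 3.56 off drug, and 2.85, 1.69 and 1.5 on drug. It rose off drug by 0.92 ± 0.24 on the log2 scale (adjusted p = 0.004) and fell by 0.82 ± 0.23 on drug against off drug (0.0061). On drug against parental it differed by 0.11 ± 0.24 (0.71), by 0.05 without parental replicate 3, and by −0.24 without the first on-drug library. TET2 was at 20.3, 19.1 and 11.2 CPM, then 14.2, 16 and 13.2, then 28, 23.6 and 19.1. It was higher on than off drug by 0.70 ± 0.18 (0.003), and parental replicate 3 was the low parental library. TET3 was at 34.9, 35.4 and 18.9 CPM, then 22.8, 27.3 and 24.7, then 35.3, 33 and 31.2. Without parental replicate 3, TET2 and TET3 were called lower off drug, by log2 values of −0.45 (adjusted p = 0.014) and −0.49 (0.00037).

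**Figure D4:**
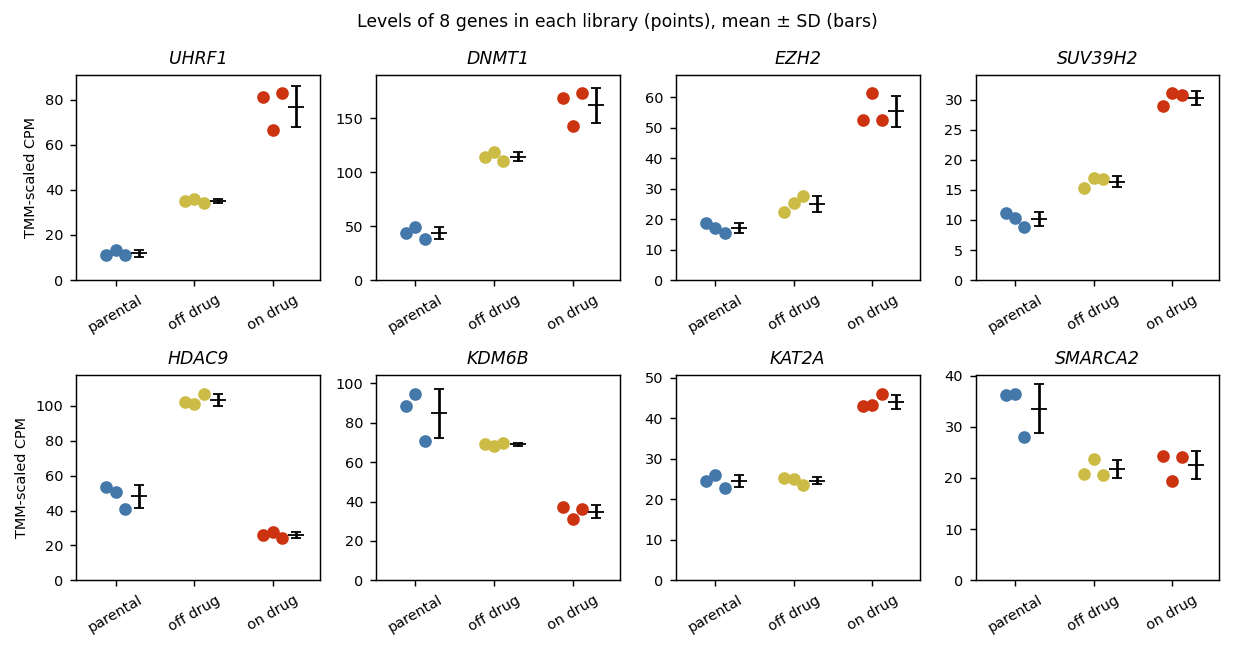
CPM of 8 chromatin genes (y, linear from 0) in each library (points) by state (x), with the mean ± SD of the 3 libraries of a state (bars). UHRF1, DNMT1 and EZH2 rise through the 3 states, HDAC9 peaks off drug, and KDM6B is lowest on drug.

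Of the 4 PRC2 core genes, 3 rose in each comparison and EZH1 passed no test. The shares of all genes called higher were 28.4%, 31.4% and 33.4%. EZH2 (ENSG00000106462.12, chromosome 7, 148807383 to 148884321) was at 18.7, 17.2 and 15.3 CPM in parental, 22.3, 25.2 and 27.5 off drug, and 52.5, 61.3 and 52.4 on drug, without overlap between states. The larger step was on drug, with log2 fold changes of 0.55 ± 0.11 (adjusted p = 0.0004), 1.15 ± 0.10 (8.1e-08) and 1.70 ± 0.11 (8.8e-10). EED, which binds the methylated lysine, was at 23.8, 24.7 and 24.9 CPM, then 44.3, 38.9 and 42.5, then 56.8, 61.8 and 56.5. Its log2 fold change was 0.78 ± 0.08 off drug (1e-06) and 1.26 ± 0.08 on drug (1.8e-09), both against parental, with no overlap. SUZ12, the scaffold of the complex, was at 41.6 ± 3.25, 52.5 ± 2.59 and 65.0 ± 1.84 CPM and was called higher at each step, by 0.64 ± 0.08 on drug against parental on the log2 scale (4e-06). EZH1, the alternative catalytic subunit, whose window also holds an E2F word, stood at 8.52 ± 1.14, 9.58 ± 0.409 and 8.44 ± 0.0996 CPM. The TPM ratio of EZH2 to EZH1 averaged 2.57, 3.01 and 7.02, and every on-drug library was above every other library.

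The genes that write the repressive mark on lysine 9 of histone H3 also rose. SUV39H2, a methyltransferase of constitutive heterochromatin, was at 11.2, 10.3 and 8.91 CPM, then 15.3, 17 and 16.8, then 28.9, 31.1 and 30.8. Its log2 fold changes were 0.69 ± 0.10 (adjusted p = 2.9e-05), 0.88 ± 0.10 (7.4e-07) and 1.58 ± 0.10 (1e-09), with no overlap between states. Its paralogue SUV39H1 was at 11.9, 12.5 and 12.6 CPM, then 23.8, 19.6 and 22.3, then 29.2, 26.8 and 29.1, and rose by 0.83 ± 0.10 off drug (2.3e-06) and 1.20 ± 0.09 on drug (1.4e-08), both against parental. EHMT2 (G9a), which methylates lysine 9 in euchromatin, was at 62.9, 70.5 and 63.8, then 92.7, 100 and 95.3, then 129, 114 and 137 CPM. Its rise was 0.55 ± 0.09 off drug (6.2e-05) and 0.95 ± 0.09 on drug (8.9e-08) against parental. EHMT1, its partner, was at 55.5 ± 4.34, 55.2 ± 1.03 and 69.7 ± 2.94 CPM and was called higher in the 2 comparisons with on-drug cells. Of these 4 genes, 3, 4 and 4 were called higher in the 3 comparisons and 0 were called lower. Of all genes, 28.4%, 31.4% and 33.4% were called higher.

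Genes of DNA copying were also higher in the resistant line. The summed level of 20 replication genes, including the MCM helicase and PCNA, was 581 to 623 CPM in parental, 1120 to 1210 off drug and 2560 to 2660 on drug, and 18, 18 and 19 of the 20 were called higher in the 3 comparisons. The summed level of 15 mitosis genes was 1370 to 1420, 2410 to 2490 and 2160 to 2330 CPM, with 14 higher off drug against parental, 4 higher and 5 lower on against off drug (8 and 3 with library-size scaling), and 14 higher and 1 lower on drug against parental. Of all genes, 28.4%, 31.4% and 33.4% were called higher in the 3 comparisons. By mean CPM, UHRF1, DNMT1, EZH2 and SUV39H2 follow the order of the first sum, as do DNMT3B, EED, SUZ12, SUV39H1, EHMT2, KDM2B and HDAC2. CREBBP, SETD2, KMT2C and KAT2A also follow it. Libraries overlapped off drug against parental for KMT2C and KAT2A, and on against off drug for SETD2 and KMT2C. Other members do not, among them HDAC9, KDM6B, KDM3A, KMT2D, NSD2 and SMARCA2. The part of the cell cycle in any of these changes was not tested.

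Methyltransferases that mark active genes were higher off drug than in parental cells. Among 5 genes for lysine 4, KMT2A, KMT2B and KMT2D were called higher and KMT2C and SETD7 were not, where 28.4% of all genes were called higher. KMT2A was at 53.9, 55.9 and 32.2 CPM in parental, 77.3, 86.9 and 73.3 off drug and 73.7, 61.4 and 64.5 on drug, and rose off drug by 0.74 ± 0.15 on the log2 scale (adjusted p = 0.00071). KMT2D was at 82.8, 76 and 38.9, then 97.2, 102 and 93.8, then 73.4, 61.6 and 61.5 CPM. KMT2D rose off drug by 0.57 ± 0.19 (0.017), and was not called in DESeq2 (0.073). Parental replicate 3 was the low one in both genes, and without it the rise off drug was 0.53 for KMT2A and 0.30 for KMT2D, both still called. KMT2B was at 47.1, 57 and 40, then 66.1, 71.4 and 69.5, then 54.3, 46.7 and 57.2 CPM and rose off drug by 0.52 ± 0.11 (0.001).

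On drug against off drug, KMT2B, KMT2D and SETD7 were called lower, with a median of −0.28 over the 5 genes, and 31.2% of all genes were called lower. KMT2A was called lower as well without parental replicate 3 (−0.25, adjusted p = 0.017). With library-size scaling 0 of the 5 were called lower and 1 higher, with a median of −0.02. SETD7's call was also lost in 6 of the fits that each left out 1 library. KMT2D fell by 0.57 ± 0.19 (adjusted p = 0.013), which was lost with library-size scaling (−0.32, adjusted p = 0.16), on log2(TPM + 1) (−0.16, 0.47), in DESeq2 (0.061), and without on-drug replicate 2 or replicate 3 (0.053 each). KMT2C, whose reads can be shared with duplicated copies of its exons elsewhere in the genome, was at 32.8 ± 6.90, 37.8 ± 1.78 and 40.6 ± 2.67 CPM. SETD7 was at 86.5 ± 15.2, 83.5 ± 3.47 and 69.0 ± 7.59 CPM.

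All 4 methyltransferases of lysines 36 and 79 were called higher off drug than in parental, against 28.4% of all genes. SETD2, the main writer of lysine 36 trimethylation, was at 33, 35.5 and 25.5 CPM, then 48.1, 55.1 and 47.8, then 61.6, 50.4 and 51.1. It rose by 0.68 ± 0.12 off drug (adjusted p = 0.00015) and by 0.79 ± 0.12 on drug (2e-05), both against parental. NSD2, which places the dimethyl mark, was at 102, 104 and 89.1, then 148, 154 and 140, then 125, 115 and 125 CPM, and rose off drug by 0.58 ± 0.08 (2.1e-05). NSD1 was at 46.0 ± 8.39, 62.5 ± 5.68 and 56.6 ± 4.81 CPM and DOT1L, the lysine 79 enzyme, at 60.4 ± 8.41, 85.1 ± 0.972 and 64.4 ± 3.09. On drug against off drug, NSD2 and DOT1L were called lower, as were 31.2% of all genes. With library-size scaling 0 of the 4 were lower and 1 was higher, and the median went from −0.21 to 0.05.

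Lysine demethylases included genes called in either direction. KDM6B (ENSG00000132510.11, chromosome 17, 7839904 to 7854796), which removes the PRC2 mark, was at 88.8, 94.9 and 70.9 CPM in parental, 69.4, 68.4 and 69.9 off drug, and 37.5, 31.3 and 36 on drug. The on-drug libraries were below all others, with log2 fold changes of −0.99 ± 0.10 against off drug (adjusted p = 6e-07) and −1.28 ± 0.10 against parental (2.4e-08). Off drug it was called lower than in parental, a call lost in 5 of the fits that each left out 1 library. KDM3A, a lysine 9 demethylase, was at 64.4, 64.3 and 55, then 63.3, 66.8 and 57.7, then 41.6, 37.1 and 34.5 CPM. It was lower on drug by −0.73 ± 0.10 against off drug (6.4e-06) and −0.70 ± 0.10 against parental (8.9e-06), and the first 2 states overlapped. KDM5B, which erases lysine 4 methylation, was at 69.8, 68.6 and 60, then 74.7, 79.5 and 72.1, then 55.1, 41.1 and 46.1 CPM. Its log2 fold changes were 0.19 ± 0.10 off drug against parental (adjusted p = 0.13), −0.67 ± 0.10 on against off drug (3.4e-05) and −0.48 ± 0.10 on drug against parental (0.00066). The last was not called on log2(TPM + 1) (−0.18, adjusted p = 0.27).

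KDM2B, which links Polycomb complexes to unmethylated CpG islands, rose: it was at 14.7, 15.1 and 12.9 CPM, then 22.6, 23.1 and 21.1, then 28.9, 25.8 and 27. Its log2 fold changes against parental were 0.64 ± 0.09 off drug (adjusted p = 2.6e-05) and 0.94 ± 0.09 on drug (2e-07). KDM4B, which demethylates lysine 9, was at 27.7, 33.6 and 28.2, then 20, 21.2 and 18.4, then 23.6, 22.5 and 27.5 CPM. Off drug it was lower by −0.59 ± 0.11 (0.00019), a call that log2(TPM + 1) did not make (−0.32, adjusted p = 0.054). KDM1A (LSD1) was at 99 ± 0.513, 112 ± 6.05 and 96.5 ± 4.64 CPM and KDM5A at 27.4 ± 2.93, 37.4 ± 4.18 and 32.2 ± 4.91. Of the 7 demethylases, 2 were higher and 2 lower off drug against parental (28.6% each, near the 28.4% and 26.6% of all genes), 2 and 4 on against off drug (2 and 3, with the median going from −0.21 to 0.04, under library-size scaling), and 1 and 4 on drug against parental (3 and 3, median from −0.28 to −0.06, under that scaling).

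HDAC9, a class IIa deacetylase that acts with tissue transcription factors, changed direction between the states. HDAC9 (ENSG00000048052.23, chromosome 7, 18086949 to 19002416) was at 53.2, 50.6 and 40.6 CPM in parental, 102, 101 and 107 off drug, and 26.2, 27.5 and 24.3 on drug. The off-drug libraries were above all parental libraries and the on-drug libraries below them. Log2 fold changes were 1.10 ± 0.10 (adjusted p = 1.3e-07), −1.99 ± 0.10 (8.4e-11) and −0.89 ± 0.10 (8.8e-07). It was the 1 chromatin gene lower by 2-fold or more on against off drug.

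The other deacetylases moved less. HDAC1, a catalytic subunit of several corepressor complexes, stood at 130 ± 6.78, 128 ± 2.36 and 125 ± 4.69 CPM and passed no test. HDAC2, its close paralogue, was at 93.2 ± 2.30, 108 ± 4.91 and 129 ± 2.11 CPM and was called higher in each comparison, off drug against parental with a call lost in 4 of the fits that each left out 1 library. The TPM ratio of HDAC2 to HDAC1 averaged 0.948, 1.14 and 1.35, and no library of one state entered the range of another. HDAC3, the enzyme of the NCoR complex, was at 44.4 ± 6.05, 44.4 ± 0.731 and 59.0 ± 1.46 CPM, and was called higher in the 2 comparisons with on-drug cells. HDAC7 was at 50 ± 2.43, 62.7 ± 1.56 and 61.0 ± 4.88 CPM, HDAC5 at 59.7 ± 1.86, 62.6 ± 1.02 and 48.7 ± 4.23, HDAC4 at 11.4 ± 2.07, 9.5 ± 0.435 and 8.41 ± 0.741, and HDAC11 at 11.5 ± 0.78, 9.93 ± 0.889 and 10.8 ± 1.05. Over the 8 deacetylases, 3 were higher and 0 lower off drug, 2 and 2 on against off drug (5 and 1 with library-size scaling), and 3 and 3 on drug against parental (3 and 1 with that scaling). As shares these are 37.5% and 0%, 25% and 25%, and 37.5% and 37.5%. The shares of all genes were 28.4% and 26.6%, 31.4% and 31.2%, and 33.4% and 32.9%, and the last 2 comparisons were near them.

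Among acetyltransferases, KAT2A was higher on drug than in both other states, and EP300 and CREBBP were higher in both resistant states than in parental. KAT2A (GCN5, ENSG00000108773.11, chromosome 17, 42113108 to 42121358) was at 24.6, 26 and 22.9 CPM, then 25.2, 25.1 and 23.6, then 42.9, 43.3 and 46.1. On-drug levels were higher by 0.84 ± 0.08 against off drug (adjusted p = 2.1e-07) and 0.85 ± 0.08 against parental (1.7e-07), and the first 2 states overlapped. EP300, a coactivator that acetylates lysine 27 of histone H3, was at 48.1, 48.7 and 27.5, then 68.8, 74.6 and 65.3, then 70.2, 54.3 and 55 CPM. CREBBP, its paralogue, was at 35.8, 37.4 and 19.5, then 50.7, 48.2 and 49.1, then 73, 58.7 and 62.2 CPM. Off drug they rose by 0.75 ± 0.17 (0.0012) and 0.67 ± 0.17 (0.0032), or 0.52 and 0.43 without parental replicate 3, both still called. On drug they stood 0.53 ± 0.16 (0.0099) and 1.07 ± 0.17 (4.1e-05) above parental, and EP300 lost that call without the first on-drug library (0.39, 0.062) and stood at 0.31 (0.021) without parental replicate 3. KAT2B was near the lower end at 1.94 ± 0.512, 1.47 ± 0.595 and 2.42 ± 0.467 CPM. It was called higher on than off drug by 0.74 ± 0.29 (0.039), a call lost in 4 of the fits that each left out 1 library.

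The 2 SWI/SNF ATPases, alternative motors of the remodeller, parted. SMARCA2 (ENSG00000080503.24, chromosome 9, 1980290 to 2193624) was at 36.2, 36.5 and 28 CPM in parental, 20.8, 23.7 and 20.6 off drug, and 24.2, 19.4 and 24.1 on drug. Both resistant states were below every parental library. Log2 fold changes were −0.63 ± 0.12 off drug (0.00029) and −0.57 ± 0.12 on drug (0.00041) against parental, and 0.06 ± 0.12 on against off drug (adjusted p = 0.68). On the TPM scale the calls differed: SMARCA2 averaged 9.94 ± 1.40, 5.27 ± 0.25 and 8.31 ± 1.07 TPM, and on log2(TPM + 1) it was called higher on than off drug (0.57, adjusted p = 0.0022) and not called on drug against parental (−0.23, 0.13). SMARCA4 was at 133 ± 11.4, 172 ± 3.08 and 164 ± 17.0 CPM, called higher in both resistant states than in parental, on drug not without on-drug replicate 3. The TPM ratio of SMARCA4 to SMARCA2 averaged 2.20, 5.39 and 4.33. As a ratio of CPM it averaged 4.0, 7.96 and 7.29, and the off-drug and on-drug libraries overlapped.

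**Figure D5:**
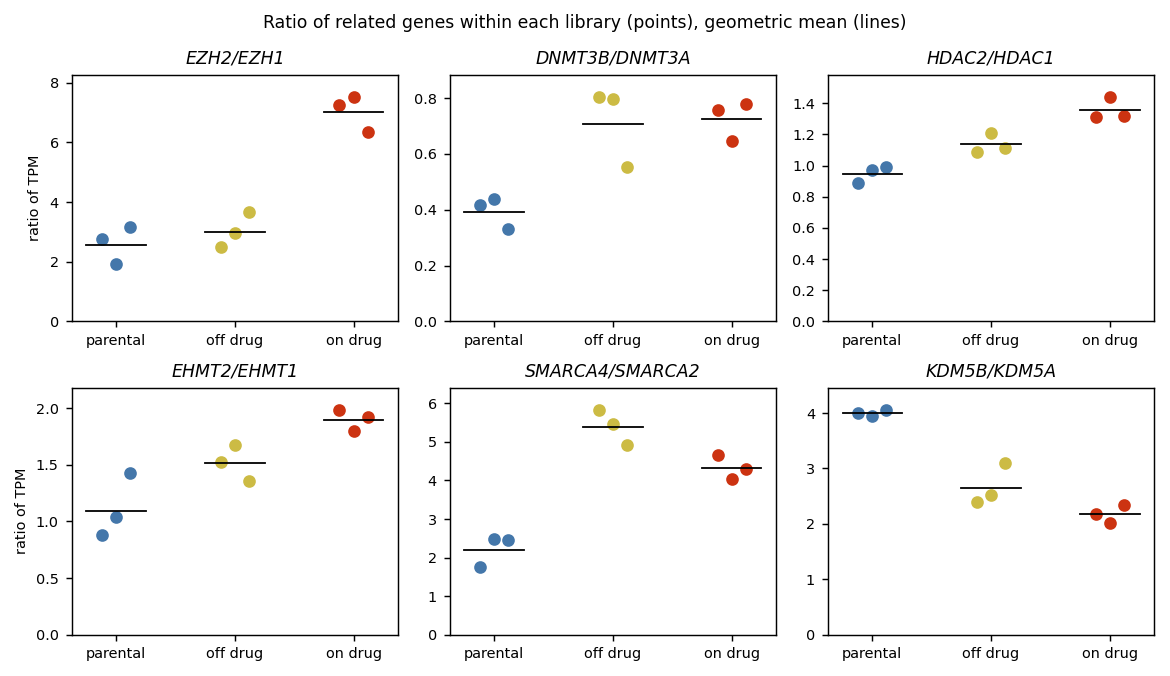
Within-library TPM ratios of paralogue pairs, points for libraries and a line for the geometric mean of each state, on linear axes from 0. EZH2 to EZH1 averages 2.57, 3.01 and 7.02, SMARCA4 to SMARCA2 averages 2.20, 5.39 and 4.33, and HDAC2 to HDAC1 averages 0.948, 1.14 and 1.35.

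The ratio of estimated count to TPM for a gene follows the average length of its transcripts as the quantifier assigned them. Of the 45 chromatin genes, 0, 0 and 1 were called by limma in the 3 comparisons, against 0.189%, 5.06% and 13.7% of the 13223 genes tested, and 4, 9 and 10 had an unadjusted p under 0.05. The 1 gene was KDM2B, lower on drug than in parental by −0.27 on the log2 scale (adjusted p = 0.034). It was not called when either of the first 2 parental libraries or any 1 on-drug library was left out. SMARCA2 had the largest shifts of the 45 genes on the log2 scale. They were 0.41 ± 0.11 off drug against parental and −0.40 ± 0.11 on against off drug, and neither was called (adjusted p = 0.22 and 0.08).

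A second list held 82 other chromatin genes, partners and relatives of those above, and all were tested. Off drug against parental, 42 were higher and 11 lower (51.2% and 13.4%, against 28.4% and 26.6% of all genes), with a median of 0.25. On against off drug 26 were higher and 30 lower (31.7% and 36.6%, against 31.4% and 31.2%), with a median of −0.07, which became 37 and 16 with a median of 0.19 under library-size scaling. On drug against parental 40 were higher and 21 lower (48.8% and 25.6%, against 33.4% and 32.9%), with a median of 0.19. With library-size scaling these became 49 and 13, with a median of 0.41.

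The counts by group stand beside 28.4% higher and 26.6% lower of all genes off drug against parental, and 31.4% and 31.2% on against off drug. By group, off drug against parental, 8 of 10 other lysine demethylases were higher and 0 lower, 9 of 15 Polycomb partners were higher and 1 lower, 8 of 16 other SWI/SNF subunits were higher and 1 lower, and 5 of 8 other acetyltransferases were higher and 0 lower. The remaining groups were more divided, with 6 higher and 4 lower of 15 other histone methyltransferases, 4 and 2 of 9 partners of methylated DNA, and 2 and 3 of 9 other deacetylases (22.2% and 33.3%, near all genes). On against off drug the same other lysine demethylases were 1 higher and 6 lower (2 and 4 with library-size scaling), the other acetyltransferases 2 and 5 (2 and 2), and the other histone methyltransferases 3 and 7 (4 and 2). There the Polycomb partners were 5 higher and 4 lower (33.3% and 26.7%, near all genes in the main fit, and 8 and 4 with library-size scaling). The other SWI/SNF subunits were 7 and 2 (12 and 1 with that scaling), the partners of methylated DNA 5 and 2 (5 and 1), and the other deacetylases 3 and 4 (4 and 2).

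Exons of 19 of the 45 genes share bases with a gene on the opposite strand in the annotation, 20.3% of exon bases at most (SUV39H1), and the sources used here do not say that counting used strand, so reads of such pairs cannot be told apart there. The partners of SUV39H1 and EHMT2 were under 1 CPM in every state's mean. Other partners were not low: RNF34, which shares 3.22% of the exon bases of KDM2B, averaged 21.3, 24.6 and 39.4 CPM in parental, off drug and on drug, above KDM2B in each state and in the same order. DCLRE1C, which shares 4.46% of those of SUV39H2, averaged 6.23, 8.82 and 9.76 CPM, also in the same order as SUV39H2. PLEKHJ1, which shares 4.69% of those of DOT1L, averaged 38.1, 28.8 and 43 CPM. Their part in the results of KDM2B, SUV39H2 and DOT1L was not tested. Genes on the same strand share exon bases too. AP001267.5 shares 17.9% of those of KMT2A and averaged 4.02, 3.48 and 4.93 CPM in parental, off drug and on drug. AC099811.2 shares 10.7% of those of KAT2A and averaged 0, 0.021 and 0.0299 CPM. The part of same-strand genes was not tested either.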

How the data were processed

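Poly(A) RNA of 9 libraries (3 per state) was read with 150-base paired reads. The authors deposited per-gene estimated counts and TPM. The submitters' processing notes name bcl2fastq 2.17, FastQC 0.12.1, Salmon 0.14.1 and GRCh38.p13, with no role. The estimated counts deposited by the authors were not whole and were rounded here. TPM values deposited by the authors were used for levels between genes and as an alternative.

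Genes passing filterByExpr (minimum count 10, total 15) were tested with edgeR 4.0.16 (quasi-likelihood, TMM) under R 4.3.3, with all 9 libraries in 1 fit and 6 residual degrees of freedom; CPM are TMM-scaled. SE is the log2 fold change divided by the square root of F. Count per TPM was tested with limma 3.58.1 for genes with a mean count of at least 50. Alternatives were DESeq2 1.42.0, voom, other scalings and filters, log2(TPM + 1) and (TPM + 0.1), a replicate block and leaving out each library. The fits were tested on simulated data. No 2 libraries of a state agreed within sampling noise (lowest chi-square per degree of freedom 5.113). Transcript lengths (GENCODE v29) matched 98.7% of genes tested.

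The members and lists were chosen with earlier results of these data known. A log2 fold change was printed for members called with an absolute value of at least 0.5, and in every comparison for DNMT1, DNMT3B, UHRF1, TET1, EZH2, KDM5B, HDAC9 and SMARCA2, which together made 21, 15 and 20 genes in the 3 comparisons. Values without parental replicate 3 of TET1, TET2, TET3 and KMT2D, and of KMT2A and CREBBP on against off drug, were added after they were seen.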

Additional observations from a re-analysis of the deposited data

How the results depend on the processing

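Of the log2 fold changes of named genes under the alternatives, 1134 kept direction and call, 29 lost the call, 4 gained it and 1 turned (TET1 on drug against parental, −0.24 without the first on-drug library and up to 0.27 without another). Members called lower moved most. Off drug against parental 4 became 1 on log2(TPM + 1), with or without a filter, and on log2(TPM + 0.1), and 3 to 7 when 1 library was left out. On against off drug 12 became 5 with library-size scaling, 4 on both TPM scales and 3 without a filter; on drug against parental 9 became 5, 3, 3 and 2. For count per TPM, the on-against-off count was 0 to 1 when 1 library was left out (1 without parental replicate 3). The on-drug-against-parental count was 2 when centred by the mean, 3 at a mean count of at least 200, and 0 to 4 when 1 library was left out. Ratios of CPM turned KMT2A to KMT2B on against off drug (0.14), SUV39H2 to SUV39H1 (−0.13) and EP300 to CREBBP (0.06), both off drug against parental. The cause of these shifts was not tested, beyond the length dependence of parental replicate 3. Replicate numbers did not pair the libraries: same-number deviations correlated at −0.03 to 0.14, other numbers at −0.10 to 0.07, and 1 library matched its own number best in both other states. With a replicate block the splits were 25 higher and 4 lower, 20 and 12, and 25 and 9. TET1 and KAT2B had the lowest counts, at 0.898 to 3.81 CPM, which limits the precision of their changes.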
